A study of Mus musculus with 22 samples.

Results

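Messenger RNA of 10 genes of the piRNA pathway was examined in mouse chondrocytes and cartilage in which the DNA methyltransferase Dnmt1 was intact or deleted. The genes were taken by exact gene symbol: Piwil2, Piwil4, Mov10l1, Asz1, Mael, Ddx4, Tdrd1, Tdrd6, Tdrd9 and Tdrd12. All 10 had a row among the 34866 genes of the culture tables. The whole-number cartilage table, with 23911 genes, held 8 of them and had no row for Tdrd6 or Tdrd12. A second cartilage table of estimated counts from the same libraries held all 10. The 10 genes lie on 10 different chromosomes (GRCm38, GENCODE M21). Those whose promoter sequence is not printed are Piwil2 (chr14:70372477-70429383, minus strand), Piwil4 (chr9:14696230-14740733, minus), Ddx4 (chr13:112598333-112652475, minus), Tdrd6 (chr17:43615335-43630299, minus) and Tdrd9 (chr12:111971559-112068854, plus).

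The series asks what loss of Dnmt1 does to gene expression in cartilage cells, and comprised 22 samples in 6 groups. Controls were labelled Dnmt1 flox in culture and flox in tissue, and mutants (cKO) Prrx1-Cre;Dnmt1 flox/flox in culture and cKO in tissue. Prrx1 drives Cre in limb bud mesenchyme, so cells of other origin in a sample can keep Dnmt1. Chondrocytes were cultured from knee articular cartilage of pups at postnatal day 3 to 5. They were sampled untreated (day 0, 3 control and 3 cKO libraries) or after 3 days of bone morphogenetic protein 2, BMP2, at 100 ng/µl as labelled (day 3, 4 control and 4 cKO libraries). Cartilage was taken at postnatal day 5 and collagenase-treated (4 control and 4 cKO libraries, replicates 1 and 2 male and replicates 3 and 4 female in each genotype). The culture labels name biological replicates without naming animals, so the p-values measure the spread between these samples, which may in part be technical.

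PIWI-interacting RNAs (piRNAs) are small RNAs that guide PIWI proteins to transposon transcripts, which are cut, and, in the fetal male germline, to transposon genes, which become DNA-methylated. The machinery works in the germline, in cytoplasmic granules beside the mitochondria, and most of its protein components have little expression in somatic tissue. Several of its genes are known to carry DNA methylation at CpG-rich promoters in somatic cells. DNA methylation, transposon transcripts and piRNAs themselves were not analysed here.

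The promoters are shown first, because CpG is the substrate of Dnmt1, the enzyme that copies methylation to the new DNA strand. Of the 10 genes, 8 had a promoter in the RefSeq-derived table (GRCm38.p6), given as 250 bases before to 50 bases after the start site. Piwil2 and Tdrd6 had no entry. The stretches below lie upstream of both the RefSeq start and the GENCODE gene start, are read 5′ to 3′ on the gene's strand, and have every CpG in capitals. Asz1, Mov10l1 and Mael had the widest differences between genotypes relative to control, Tdrd1 a smaller one, and Tdrd12 the fewest promoter CpGs. At day 0 the fitted log2 difference was 3.30 for Tdrd12, 2.73 for Tdrd1 and 2.78 for Ddx4, the member with the most promoter CpGs. A relation between CpG content and the size of the difference was not tested.
Asz1, chr6:18109062-18109311, minus strand: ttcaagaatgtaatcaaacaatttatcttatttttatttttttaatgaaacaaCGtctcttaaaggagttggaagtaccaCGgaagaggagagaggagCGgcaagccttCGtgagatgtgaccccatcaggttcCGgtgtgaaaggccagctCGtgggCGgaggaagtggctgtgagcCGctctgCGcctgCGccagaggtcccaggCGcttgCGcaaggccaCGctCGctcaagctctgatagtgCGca
Mov10l1, chr15:88982744-88982908, plus strand: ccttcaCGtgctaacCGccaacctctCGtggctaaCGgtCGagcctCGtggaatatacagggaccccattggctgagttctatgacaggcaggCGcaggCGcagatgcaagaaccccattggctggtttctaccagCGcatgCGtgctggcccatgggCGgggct
Mael, chr1:166238748-166238994, minus strand: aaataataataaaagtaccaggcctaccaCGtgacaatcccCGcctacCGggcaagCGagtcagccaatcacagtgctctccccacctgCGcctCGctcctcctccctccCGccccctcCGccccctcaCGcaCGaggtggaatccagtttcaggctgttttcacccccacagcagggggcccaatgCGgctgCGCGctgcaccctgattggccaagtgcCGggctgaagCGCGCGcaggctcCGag
Tdrd1, chr19:56825959-56826208, plus strand: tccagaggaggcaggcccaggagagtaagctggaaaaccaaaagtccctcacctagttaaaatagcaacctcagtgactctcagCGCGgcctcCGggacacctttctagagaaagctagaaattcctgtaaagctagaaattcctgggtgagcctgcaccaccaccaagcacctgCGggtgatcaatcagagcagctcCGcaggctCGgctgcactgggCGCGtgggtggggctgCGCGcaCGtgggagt
Tdrd12, chr7:35537746-35537994, minus strand: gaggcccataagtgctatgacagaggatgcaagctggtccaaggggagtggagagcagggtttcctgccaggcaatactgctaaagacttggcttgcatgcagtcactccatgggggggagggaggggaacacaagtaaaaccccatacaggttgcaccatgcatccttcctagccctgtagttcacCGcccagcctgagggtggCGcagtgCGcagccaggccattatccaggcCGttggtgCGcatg

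Over the full 300-base windows, Ddx4 held 38 CpGs, more than 95% of the 32851 promoters in the table. Mael held 24, Tdrd1 and Mov10l1 20 each, Asz1 17, Piwil4 11, Tdrd9 10 and Tdrd12 9, against a median of 7 over all promoters. The observed over expected CpG ratio corrects this count for base composition. It was 0.978 for Ddx4, 0.783 for Asz1, 0.780 for Mael, 0.733 for Tdrd1, 0.674 for Mov10l1, 0.543 for Piwil4, 0.430 for Tdrd9 and 0.341 for Tdrd12, with a median of 0.384 over all promoters. Tdrd12 was the single member below that median. The windows were also searched on both strands for CACGTG, an E-box bound by basic helix-loop-helix factors, and for GCGGGA, the core of an E2F motif. The E-box letters were present in 5 of the 8 windows (Tdrd1, Tdrd9, Mael, Mov10l1 and Ddx4) and in 7.15% of all promoters. GCGGGA was present in 2 of the 8 (Mael and Ddx4) and in 19.98% of all promoters. Both motifs contain a CpG, and the 8 windows held 9 to 38 CpGs against the median of 7. The shares over all promoters are therefore not matched for CpG content, and enrichment was not tested. For Ddx4, Mov10l1 and Piwil4 the RefSeq start lies 165, 85 and 61 bases downstream of the GENCODE gene start, so their windows are set by the choice of annotation.

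**Figure D1:**
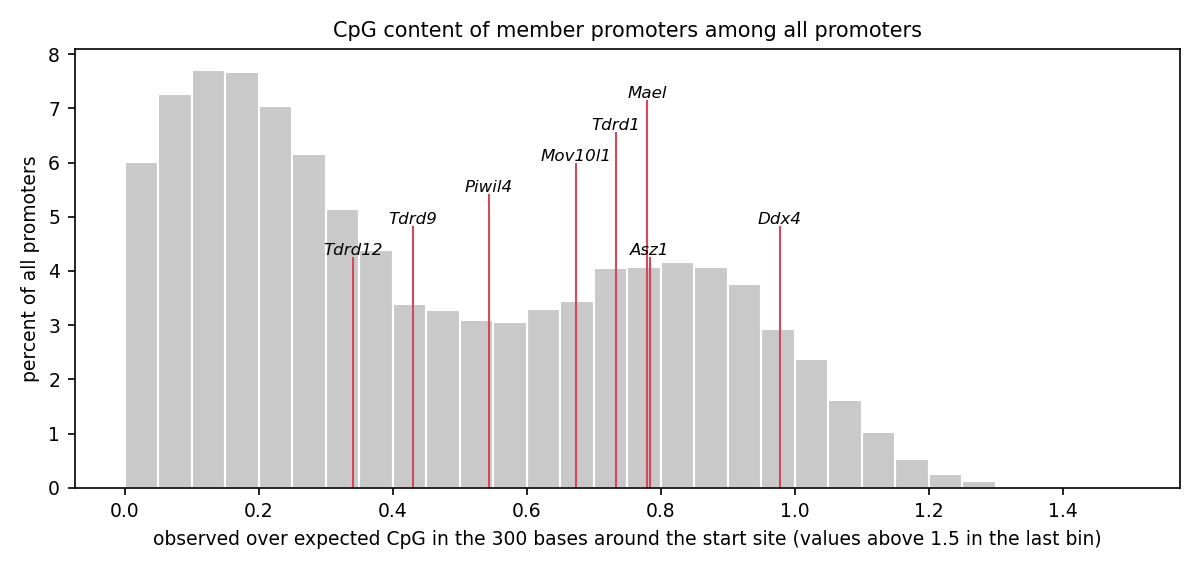
Observed over expected CpG ratio of 300-base promoter windows (x axis) against the percent of all 32851 promoters in each bin (y axis, grey bars), with 1 red line per member gene. Tdrd12, at 0.341, lies below the median of 0.384 and Ddx4, at 0.978, lies farthest to the right; line heights differ only to separate the names.

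Day 0 libraries held 41749327 to 51741478 counts, day 3 libraries 14434197 to 18918714, and cartilage libraries 1100198 to 1888896 (whole-number table). At most 3 counts in a library is called the floor here. In CPM (counts scaled to a common library size) the floor lay between 0.0556 and 0.0690 for day 0 libraries, between 0.151 and 0.210 for day 3 libraries, and between 1.51 and 2.69 for cartilage libraries. Floors and counting intervals cover counting error only. CPM values carry TMM factors throughout. Dnmt1 itself fell in all 3 comparisons. Control libraries had 147 to 159 CPM against 25.7 to 31.3 in cKO at day 0, and 64.8 to 83.4 against 11.6 to 36.4 at day 3. In cartilage they had 33.7 to 47.5 against 11.5 to 13.9 CPM in the whole-number table, a log2 difference of -1.66. The estimated counts of the same cartilage libraries gave a smaller fall, from 43.6 to 61.8 CPM in control to 26.2 to 33.0 CPM in cKO (log2 difference -0.78). The library of cKO day 3 replicate 4 stood apart from its group: chi-square per degree of freedom against the other 3 was 124 to 138, and 7.42 to 10.9 among those 3.

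In untreated cultures, 8 of the 10 genes rose in cKO, and the summed level of all 10 was 2.05 to 2.30 CPM in the 3 control libraries and 58.7 to 66.4 CPM in the 3 cKO libraries. The genes called higher were Piwil2, Mov10l1, Asz1, Mael, Ddx4, Tdrd1, Tdrd9 and Tdrd12, with log2 differences from 2.73 to 9.34 and a median of 4.09, beside 0.01 over all 15530 genes tested. The other two, Piwil4 and Tdrd6, did not pass the filter on low counts. Dnmt1 loss came with a broad change at day 0, when 33% of tested genes were called higher and 31.6% lower (edgeR quasi-likelihood test, adjusted p under 0.05). A called rise of at least 4-fold, a size chosen after the values were seen, was found for all 8 called members and for 5.15% of tested genes. Members that passed the filter only through their cKO libraries had to differ, so these counts are a description of the 10 genes and not a test of them. In bulk RNA, more transcript per cell and more cells carrying the transcript cannot be told apart.

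Among the PIWI proteins, Piwil2 (MILI), which cuts transposon transcripts in the cytoplasm and thereby amplifies piRNAs, was the most abundant member per length of transcript in cKO at day 0. It had 1.07, 1.01 and 1.33 CPM in the control libraries and 35.3, 34.1 and 30.7 CPM in the cKO libraries at day 0. Every cKO library was over 20 CPM and every control library under 2 CPM, a log2 difference of 4.88 (SE 0.10, n = 3 and 3, edgeR adjusted p = 1.71e-09). Piwil4 (MIWI2), the nuclear PIWI protein that guides DNA methylation of transposons, stayed at the lowest levels, with 0, 3 and 4 counts in control and 11, 5 and 10 counts in cKO. The Piwil4 groups did not overlap, but with no filter its log2 difference of 1.82 (SE 0.78) missed the threshold (edgeR adjusted p = 0.0760). Piwil4 also shares 137 exon bases with the antisense gene Gm10706, and whether the counting used strand is not given in the sources used here.

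Of the proteins that make and load piRNAs, Mov10l1 and Asz1 were at the floor in every control library and far above it in every cKO library. Mov10l1, an RNA helicase that binds piRNA precursor transcripts, had 2, 3 and 2 counts in the control libraries and 523, 473 and 554 counts in the cKO libraries. These are 12.0, 10.4 and 10.3 CPM in cKO. The ratio of pooled, depth-scaled counts was 220 (95% exact counting interval 107 to 549, edgeR adjusted p = 3.73e-09). Asz1 (GASZ), a scaffold of the mitochondrial outer membrane that holds the granules together, had 0, 2 and 0 counts in control and 513, 471 and 557 counts in cKO, which is 11.8, 10.4 and 10.3 CPM. With all 3 control libraries at the floor, the pooled ratio of Asz1 was 767 with a wide interval of 212 to 6338 (edgeR adjusted p = 3.29e-08). Mael (maelstrom), a granule protein required for transposon silencing, had 1, 0 and 1 counts in control and 52, 65 and 60 counts in cKO. Its pooled ratio was 88.1 (24 to 733, edgeR adjusted p = 2.87e-06), at a cKO level of 1.11 to 1.43 CPM.

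Ddx4 (mouse vasa homolog), a DEAD-box RNA helicase and a widely used germ cell marker, was above the floor in control cultures too. It had 0.545, 0.406 and 0.376 CPM in control and 2.95, 3.21 and 3.00 CPM in cKO, without overlap, a log2 difference of 2.78 (SE 0.18, edgeR adjusted p = 1.50e-06). The tudor domain proteins bind methylated arginines of PIWI proteins and bring the pathway's parts together. Tdrd1, a partner of PIWIL2, had 0.189, 0.183 and 0.310 CPM in control and 1.56, 1.52 and 1.45 CPM in cKO, a log2 difference of 2.73 (SE 0.24, edgeR adjusted p = 1.18e-05). Tdrd9, a helicase of the branch that works with PIWIL4, had 9, 8 and 3 counts in control and 33, 43 and 67 counts in cKO, a log2 difference of 2.79 (SE 0.36, edgeR adjusted p = 1.27e-04). Neither gene had overlapping groups. Tdrd12, needed for secondary piRNAs, had 2, 1 and 1 counts in control, all at the floor, and 12, 12 and 19 in cKO, with a pooled ratio of 10.7 (3.89 to 41.0, edgeR adjusted p = 2.61e-04). Tdrd6, an organiser of the chromatoid body of spermatids, was the one member with overlapping groups at day 0, with 2, 5 and 2 counts in control and 12, 3 and 2 in cKO. Only its first cKO library was above every control library, and with no filter the edgeR adjusted p was 0.441. Groups that did not overlap, with cKO higher, were found for 9 of the 10 members and for 26.8% of all genes with a count at day 0.

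**Figure D2:**
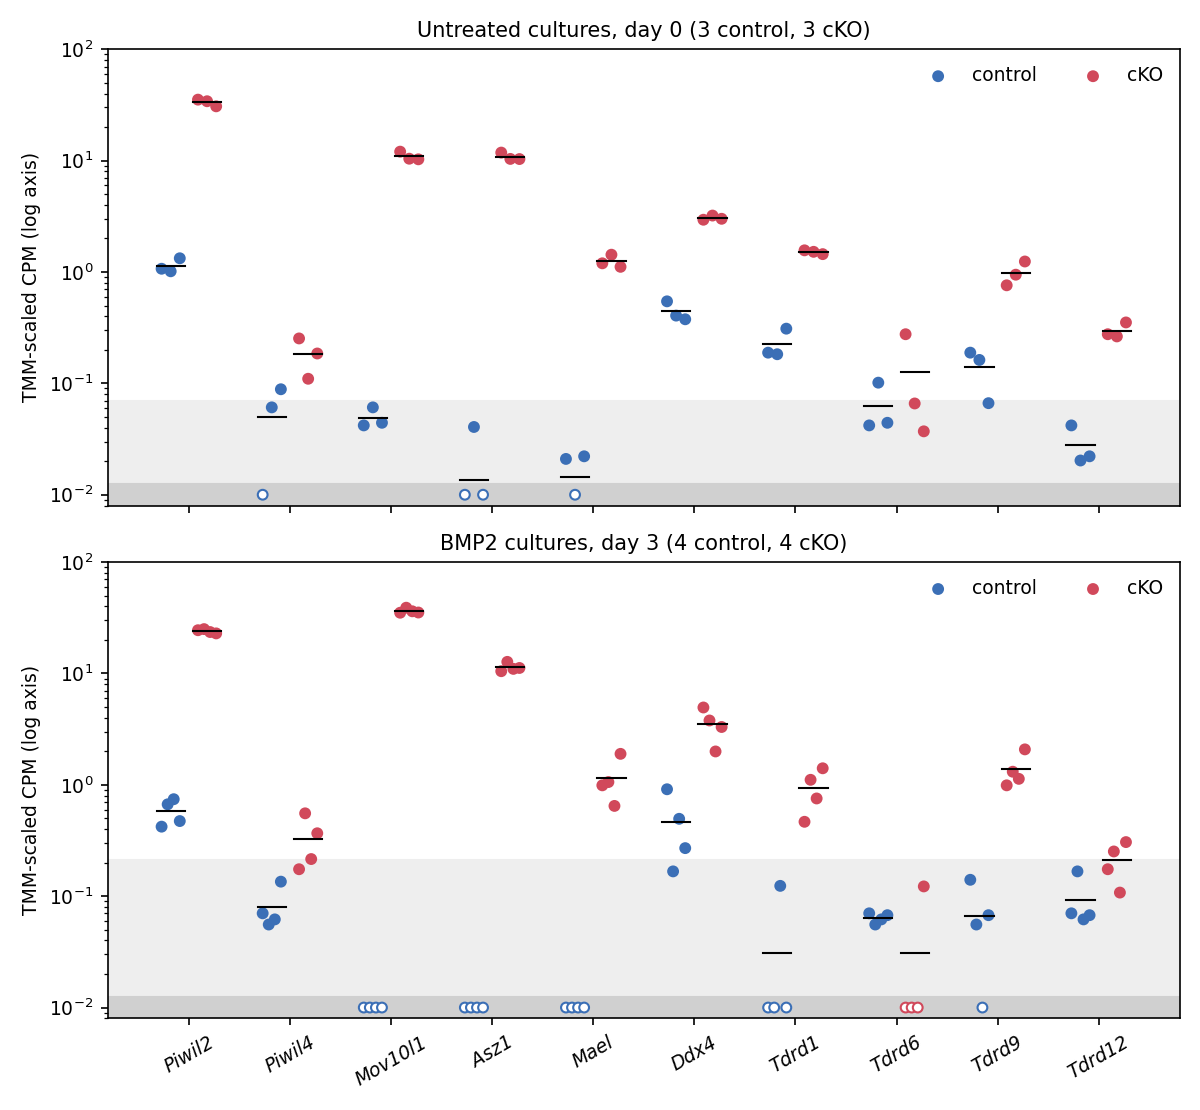
Level of each member in every culture library, in TMM-scaled CPM on a log axis, with control in blue, cKO in red and a black bar at the group mean. Open circles in the dark band are libraries with 0 counts, and the light band reaches to the highest floor of 3 counts; Piwil2, Mov10l1 and Asz1 stand highest in cKO at both days, and Tdrd6 overlaps between genotypes.

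Cultures given BMP2 for 3 days showed the same 3 genes in front, in another order. The summed level of the 10 genes was 1.08 to 1.68 CPM in the 4 control libraries and 75.5 to 84.7 CPM in the 4 cKO libraries. Piwil2, Mov10l1, Asz1, Mael, Ddx4 and Tdrd9 passed the filter, and all 6 were called higher in cKO, beside 25.5% of the 13924 genes tested. The median log2 difference of these 6 was 6.31 as fitted, and 4.81 with the 3 genes that had no control counts set at their lower bound, beside 0.01 over all genes tested. With no filter, Tdrd1 and Piwil4 were called higher as well, which makes 8 of 10 members, beside 16.7% of all genes with a count. The count of called members that passed the filter at day 3 lay between 6 and 7 when any 1 of the 8 libraries was left out, and it was 6 without cKO replicate 4, the library that stood apart.

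Mov10l1 had 0 counts in all 4 control libraries at day 3 and 35.1, 38.9, 36.1 and 35.2 CPM in the cKO libraries (603, 772, 671 and 576 counts). Its level was at least 190-fold higher in cKO, against the floor per library (edgeR adjusted p = 2.31e-06). Asz1 had 0 counts in the 4 control libraries as well, and 10.5, 12.7, 11 and 11.2 CPM in cKO, at least 59.2-fold higher (edgeR adjusted p = 1.53e-05). Mael, the third gene without a control count, had 0.989, 1.06, 0.646 and 1.9 CPM in cKO (17, 21, 12 and 31 counts), at least 6.0-fold higher (edgeR adjusted p = 0.00164). For these 3 genes the bounds rest on the floor of each single control library, 0.167 to 0.210 CPM. This floor is higher than at day 0, since day 3 libraries were shallower. The 4 control libraries together, all at 0, limit the control level further, so the bounds are cautious. No counts in any control library and counts in every cKO library were found for 1.67% of all genes with a count at day 3.

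Piwil2 kept a measurable control level at day 3, with 0.421, 0.668, 0.743 and 0.473 CPM in control and 24.4, 25, 23.5 and 22.9 CPM in cKO. The groups lay far apart, with a log2 difference of 5.35 (SE 0.16, n = 4 and 4, edgeR adjusted p = 5.41e-07). Piwil4 had 1, 1, 1 and 2 counts in control and 3, 11, 4 and 6 counts in cKO, a pooled ratio of 4.22 (1.58 to 14.1). Its edgeR adjusted p of 0.0419 comes from the fit with no filter, and all 4 control libraries were at the floor. Ddx4 had 13, 3, 8 and 4 counts in control and 85, 75, 37 and 54 in cKO, a log2 difference of 2.94 (SE 0.49, edgeR adjusted p = 0.00149). Among the tudor genes, Tdrd9 had 2, 1, 0 and 1 counts in control and 17, 26, 21 and 34 in cKO, with a pooled ratio of 21.5 (8.14 to 80.6, edgeR adjusted p = 3.86e-04). Tdrd1 had 0, 0, 2 and 0 counts in control and 8, 22, 14 and 23 in cKO, a pooled ratio of 29.4 (7.84 to 248, edgeR adjusted p = 0.00209 with no filter). The cKO libraries of Ddx4, Tdrd9 and Tdrd1 all lay above every control library. Tdrd12 had 1, 3, 1 and 1 counts in control and 3, 5, 2 and 5 in cKO, with overlap, and did not pass the test (edgeR adjusted p = 0.240 with no filter). Tdrd6 was at the floor in all 8 libraries, with 1 count in each control library and 0, 0, 0 and 2 in cKO. Non-overlapping groups with cKO higher were found for 8 of the 10 members, beside 18.3% of all genes with a count at day 3.

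**Figure D3:**
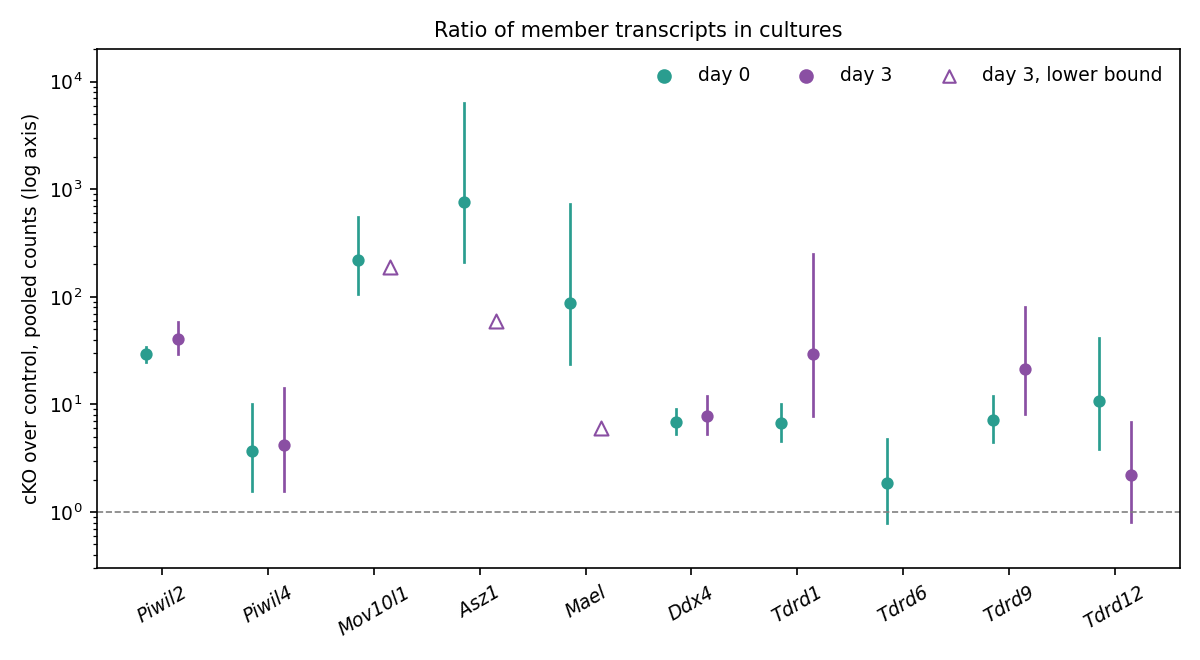
Ratio of cKO to control for each member in cultures, from pooled depth-scaled counts on a log axis, with 95% exact counting intervals as vertical lines and the dashed line at 1. Triangles are lower bounds for genes with 0 control counts at day 3 (Mov10l1 at least 190, Asz1 at least 59.2, Mael at least 6.0), and Tdrd6 at day 3 is not drawn because both groups were at the floor.

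Between the 2 days the cKO cultures changed for Mov10l1 and Piwil2 in opposite directions. Day, BMP2 treatment and count table change together, so the source of a change between days cannot be told apart. The Mov10l1 range in cKO was 10.3 to 12.0 CPM without treatment and 35.1 to 38.9 CPM after it, a log2 rise of 1.62 (SE 0.10, edgeR adjusted p = 4.66e-07). The Piwil2 range moved from 30.7 to 35.3 CPM down to 22.9 to 25 CPM, and fell by 0.59 on the log2 scale (edgeR adjusted p = 3.70e-04). The ranges of the 2 days do not overlap for either gene, and 62.2% of tested genes were called in this comparison. Fitted log2 differences of the other members that passed the filter were -0.05 for Asz1, 0.08 for Ddx4, -0.25 for Mael, 0.36 for Tdrd9 and -0.81 for Tdrd1, and none of these passed the test. In the test of a genotype effect that differs between the days, Mov10l1 alone passed among the 7 members tested, beside 16.8% of tested genes (fitted log2 difference 5.33, SE 0.67, edgeR adjusted p = 0.00661). Its control libraries were at the floor on both days, with no count at all at day 3. The counts give a ratio of at least 190 at day 3, with 3 counts set for each control library, and a pooled ratio of 220 (107 to 549) at day 0. These 2 values are made in different ways, so setting them side by side cannot decide whether the genotype effect of Mov10l1 differed. No control count was seen at day 3, so 190 is a low bound, and its nearness to 220 does not show effects of like size. Without control day 3 replicate 3, which held both Tdrd1 counts of the controls, Tdrd1 passed this test as well (5.06, edgeR adjusted p = 0.0316, with 0.0316 to 0.318 over the alternatives run for it), then also against day 3 controls at 0.

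Levels of different genes were compared per length, as CPM per kilobase of annotated exon. In cKO at day 0 the order was Piwil2 (6.31 ± 0.448, SD, n = 3), Asz1 (3.83 ± 0.298), Mov10l1 (2.61 ± 0.235), Ddx4 (1.01 ± 0.0463), Mael (0.719 ± 0.0948), Tdrd1 (0.277 ± 0.0110), Tdrd9 (0.181 ± 0.0450), Tdrd12 (0.0686 ± 0.0110), Piwil4 (0.0340 ± 0.0133) and Tdrd6 (0.0179 ± 0.0185). Ranges of neighbours in this order overlapped only for Piwil4 and Tdrd6. In cKO at day 3 Mov10l1 led with 8.69 ± 0.424 CPM per kilobase (SD, n = 4), ahead of Piwil2 with 4.53 ± 0.178 and Asz1 with 4.01 ± 0.339. The ranges of Piwil2 (4.33 to 4.73) and Asz1 (3.70 to 4.49) overlapped at day 3. Ddx4 (1.16 ± 0.405) and Mael (0.662 ± 0.306) followed, also with overlapping ranges. For scale, the residual Dnmt1 transcript in the same cKO libraries was 3.76 ± 0.419 CPM per kilobase at day 0 and 3.6 ± 1.59 at day 3.

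Cartilage taken from the animals showed a part of the same pattern at much lower depth. The summed counts of the 8 members in the whole-number table were 2, 2, 3 and 2 in the control libraries and 15, 30, 33 and 17 in the cKO libraries. That is 1.01 to 2.69 CPM in control and 12.3 to 28.8 CPM in cKO, without overlap. No member passed the filter in either cartilage table, so the test with filter tells nothing about them, while 6.19% of the 8793 genes it tested were called. With no filter, Piwil2, Asz1 and Mov10l1 were called higher, 3 of the 8 members listed, beside 2.18% of 23911 genes. The estimated counts gave the same 3 names, beside 3.54% of genes with a count there. Dropping the filter also changed the p of well-counted genes. The chondrocyte marker Col2a1 had an edgeR adjusted p of 0.0824 with the filter and 1.74e-11 with none (whole-number table). The p-values with no filter in cartilage may therefore understate the spread between libraries. All 4 control libraries were sequenced in library pool 1 and all 4 cKO libraries in pool 2, so pool and genotype cannot be told apart in cartilage.

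Piwil2 had 2, 1, 2 and 1 counts in control cartilage and 4, 10, 7 and 8 in cKO cartilage (whole-number table). The groups did not overlap and the pooled ratio was 5.80 (2.37 to 17.1, edgeR adjusted p = 0.00144 with no filter). In the estimated counts Piwil2 had 2, 2, 6 and 3 in control and 4, 15, 11 and 9 in cKO, where control replicate 3 lay above cKO replicate 1 (edgeR adjusted p = 0.0388 with no filter). Asz1 had 0 counts in all 4 control libraries and 2, 8, 9 and 4 in cKO, at least 2.21-fold higher against the floor (edgeR adjusted p = 4.28e-06 with no filter). Mov10l1 had 0 counts in all 4 control libraries and 5, 7, 9 and 1 in cKO, at least 2.11-fold higher (edgeR adjusted p = 1.07e-05 with no filter). Over the alternatives run with no filter in the whole-number table, the adjusted p ran from 8.88e-04 to 0.191 for Piwil2, from 2.20e-06 to 0.0617 for Asz1 and from 1.26e-06 to 0.219 for Mov10l1, each highest in the females alone. The estimated counts gave 3, 10, 11 and 5 for Asz1 and 11, 8, 11 and 4 for Mov10l1 in cKO, and 0 in every control library for both. Over the alternatives run with no filter in the estimated counts, Piwil2 lost its call in 11 of 12, with an adjusted p from 0.0311 to 0.594. The highest adjusted p there was 0.231 for Asz1 and 0.269 for Mov10l1.

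The other members were at or near the floor in cartilage and missed the threshold. Mael had 0 counts in control and 0, 2, 4 and 1 in cKO in both tables, with 1 cKO library at 0 like the controls. Its edgeR p with no filter was 0.0133 before adjustment and 0.182 after it in the whole-number table, and 0.0334 and 0.242 in the estimated counts. Ddx4 had 0, 0, 0 and 1 counts in control and 3, 2, 2 and 2 in cKO in the whole-number table, all at the floor. In the estimated counts it had 0 in every control library and 3, 2, 4 and 2 in cKO. The Ddx4 groups did not overlap in either table, as for 4.41% of all genes in the whole-number table and 5.51% of genes with a count in the estimated counts. Its edgeR p with no filter was 0.0200 before adjustment and 0.237 after it in the whole-number table, and 0.00668 and 0.0813 in the estimated counts. Tdrd9 had 0, 1, 1 and 0 against 1, 1, 0 and 1 counts, and Piwil4 and Tdrd1 each had a single count, in cKO replicate 3. In the estimated counts Piwil4 had 3, 0, 3 and 1 in control and 2, 2, 4 and 3 in cKO, with overlap, and Tdrd6 and Tdrd12 had 0 in all 8 libraries. At this depth a difference in Tdrd9, Piwil4, Tdrd1, Tdrd6 and Tdrd12 was not detectable. With no filter, the males alone (2 libraries of each genotype) gave 2 called members in the whole-number table (Asz1 and Mov10l1). The females alone gave 0, with 4 members at an unadjusted p under 0.05 (edgeR; DESeq2 was not run on single sexes); a difference between the sexes was not tested.

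**Figure D4:**
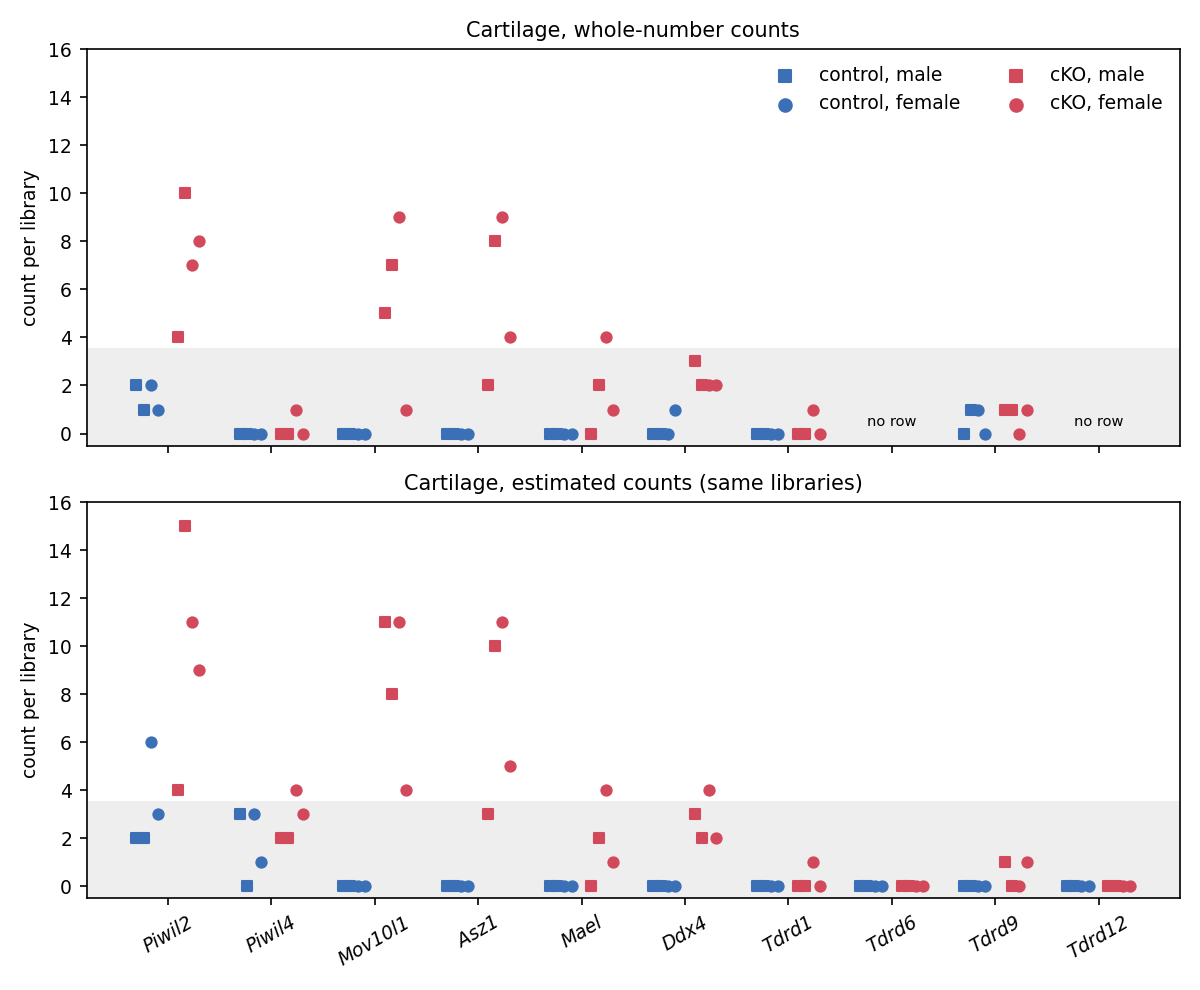
Counts of each member in the 8 cartilage libraries, in the whole-number table (top) and the estimated counts (bottom), with control in blue, cKO in red, males as squares and females as circles. The grey band covers counts at the floor of 3 or fewer; Piwil2, Mov10l1 and Asz1 reach 9 to 10 counts in cKO in the upper panel while no control library exceeds 2.

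Other genes of the pathway were called higher as well. Of 20 further piRNA pathway genes, 19 had a row in the culture tables (Tdkh was not analysed here). At day 0, 14 of them passed the filter and 11 were called higher, beside 33% of tested genes, with a median log2 difference of 2.40 over the 14. At day 3, 12 passed and 10 were called higher, beside 25.5%, with a median of 4.82 over the 12. The other 3 at day 0 (Pld6, Exd1 and Tdrd7) and the other 2 at day 3 (Exd1 and Mybl1) did not pass the test. Pld6 did not pass the filter at day 3 and went the other way, with 48 counts in all in control and 13 in cKO. Its pooled ratio was 0.238 (0.118 to 0.446), but its groups overlapped. With no filter its log2 difference of -2.03 missed the threshold (edgeR adjusted p = 0.0807). Gpat2, a mitochondrial partner of PIWIL2, had 0.205 ± 0.055 CPM in control and 12.2 ± 1.55 CPM in cKO at day 0 (SD, n = 3 each), and its log2 difference was 5.88 at day 0 and 7.07 at day 3. Fkbp6, a co-chaperone of PIWI loading, had log2 differences of 5.86 and 8.70 on the same days, with control counts of 9 in all at day 0 and 1 in all at day 3. Morc1, a nuclear factor of transposon silencing, had 18 control counts in all at day 0 and none at day 3, and its day 3 level was at least 117-fold higher in cKO. Stk31, a tudor domain kinase, was at least 22.5-fold higher at day 3 by the same bound.

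Tex15, a nuclear effector of piRNA-guided methylation, was the one further gene called in cartilage among the 3 that passed the filter there, beside 3.15% of tested genes called higher. It had 5.42 ± 0.995 CPM in control and 55.3 ± 5.90 CPM in cKO cartilage (SD, n = 4 each), a log2 difference of 3.32 (SE 0.21, edgeR adjusted p = 6.33e-08). Its log2 differences in culture were 3.54 at day 0 and 4.80 at day 3. With no filter, Gpat2 was called in cartilage too. It had 0 counts in all 4 control libraries and 3, 4, 3 and 1 in cKO in the whole-number table (edgeR adjusted p = 0.0262), and 0 in control and 4, 5, 5 and 3 in cKO in the estimated counts (edgeR adjusted p = 0.0111). Dnmt3l, the cofactor of de novo methylation in germ cells, differed by 0.79 at day 0 and by 6.63 at day 3 on the log2 scale, the latter with 1 control count in all. That change of effect between days was called (6.02, SE 0.61, edgeR adjusted p = 9.16e-05). Of the 13 further pathway genes tested for such a change, 5 were called upward at day 3, Dnmt3l among them. The 1 called downward was Mybl1, and 16.8% of all tested genes were called in either direction. Piwil1, Spocd1 and Dnmt3c, which act in the same pathway, had at most 5 counts in all per genotype at each day. Mybl1 (A-MYB), a transcription factor that activates pachytene piRNA genes, rose by 0.48 on the log2 scale at day 0 and had a difference of -0.11 at day 3 that did not pass the test.

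The small RNA machinery that all cells use did not follow the same direction. Of 10 such genes (Ago1 to Ago4, Dicer1, Drosha, Dgcr8, Xpo5, Tarbp2 and Mov10), 4 were called higher and 4 lower at day 0, beside 33% and 31.6% of tested genes, with a median log2 difference of -0.14. At day 3, 4 were called lower (Ago3, Dicer1, Dgcr8 and Xpo5), beside 22.6% of tested genes, and the other 6 did not pass the test. Mov10, the somatic relative of Mov10l1, had 14.1 ± 0.680 CPM in control and 19.1 ± 0.229 CPM in cKO at day 0, a log2 difference of 0.44, against the pooled ratio of 220 for Mov10l1.

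Nearby genes were also read. Each member's nearest protein-coding gene on each side gives 20 neighbours. At day 0, 15 of these passed the filter, 1 was called higher (Cftr beside Asz1, log2 difference 0.82) and 8 lower, beside 33% and 31.6% of tested genes, with a median of -0.27. At day 3, 14 passed the filter and 8 were called lower, beside 22.6%, with a median of -0.37 and a range of -2.11 to 0.58. In cartilage 7 passed the filter, with log2 differences from -0.43 to 0.27.

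Other genes followed the members closely across the 14 cultures. Pearson's r was taken between each gene's log2 CPM and the mean log2 CPM of the 7 members that passed the filter in the joint fit. The 5 non-members with the highest r were Rhox2d (0.998), Serpinb1c (0.997), Gm9864 (0.995), Nxf3 (0.995) and Rnf183 (0.995). Of 14902 non-member genes, 308 had an r above 0.95. The points share genotype, day and library, so these values are a description and carry no test.

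Cell type markers moved with genotype in the same libraries. The 8 chondrocyte markers were all called lower in culture, beside 31.6% of tested genes at day 0 and 22.6% at day 3. Their sum was 140284 to 148014 CPM in control and 51513 to 62413 CPM in cKO at day 0. At day 3 it was 98935 to 119568 CPM in control and 1772 to 18022 CPM in cKO. Of 7 skeletal muscle markers, 5 passed the filter at day 0 and all 5 were called higher, beside 33% of tested genes. At day 3 all 7 passed and were called higher, beside 25.5%. Their sum was 6.46 to 7.06 CPM in control and 41.8 to 52.9 CPM in cKO at day 0. At day 3 it was 1.47 to 1.98 and 151 to 1897 CPM. Among the cKO libraries of day 3, replicate 4 had the lowest chondrocyte sum (1772 CPM), the lowest muscle sum (151 CPM) and the lowest Dnmt1 level (11.6 CPM), while its summed member level of 78.8 CPM lay inside the 75.5 to 84.7 CPM of the group. Summed osteoclast, blood and immune, fibroblast and tendon, and endothelial markers at day 0 were 158 to 163, 1.87 to 2.72, 2639 to 4149 and 0.954 to 1.15 CPM in control. In cKO they were 72.8 to 86.8, 3.5 to 4.11, 2005 to 2193 and 1.59 to 1.91 CPM. At day 3 the same 4 sums were 114 to 142, 4.49 to 7.07, 6276 to 7885 and 0.248 to 0.945 CPM in control, and 99.5 to 377, 6.55 to 14.6, 8762 to 10308 and 1.29 to 1.45 CPM in cKO.

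In cartilage (whole-number table) the summed chondrocyte markers were 65501 to 97768 CPM in control and 31449 to 59950 CPM in cKO, and 2 of the 8 were called lower with the filter and 6 with no filter. Summed osteoclast markers were 121 to 441 CPM in control and 56.6 to 115 CPM in cKO, without overlap, and the 3 that passed the filter were all called lower. Blood and immune markers summed to 147 to 744 CPM in control and 18 to 335 CPM in cKO, with overlap, and 2 of the 3 that passed were called lower. Summed muscle markers were 5.83 to 8.80 CPM in control and 14.3 to 52.1 CPM in cKO, without overlap, and the 1 that passed was called higher. Fibroblast and tendon markers (29715 to 59274 and 14832 to 36760 CPM) and endothelial markers (52.8 to 98.0 and 32.0 to 76.0 CPM) overlapped between genotypes. All 5 and all 3 passed the filter, and 0 of each were called with it. With no filter, 3 of 5 and 1 of 3 were called lower. Over all tested genes, 3.15% were called higher and 3.04% lower with the filter, and 2.19% lower with no filter.

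Of 11 germ cell markers, 5 passed the filter at day 0. Of these 5, 2 were called higher (Dazl and Kit) and 1 lower (Gfra1), beside 33% and 31.6% of tested genes. The summed level of all 11 was 7.06 to 8.11 CPM in control and 39.6 to 47.2 CPM in cKO at day 0, and 5.12 to 7.79 and 28.8 to 47.2 CPM at day 3. Dazl, a germ cell RNA-binding protein, made up most of this, with 0.0844 ± 0.0360 CPM in control and 35.8 ± 4.63 CPM in cKO at day 0 (SD, n = 3 each). Nanos2 was at 0 in all 14 culture libraries, and Pou5f1, Nanos3, Dppa3, Prdm14 and Sox17 were at the floor in all 6 libraries of day 0. In cartilage Dazl had 0 counts in control and 71.9 ± 11.7 CPM in cKO (SD, n = 4 each). The part of the marker changes of the other cell types in the member results was not tested.

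**Figure D5:**
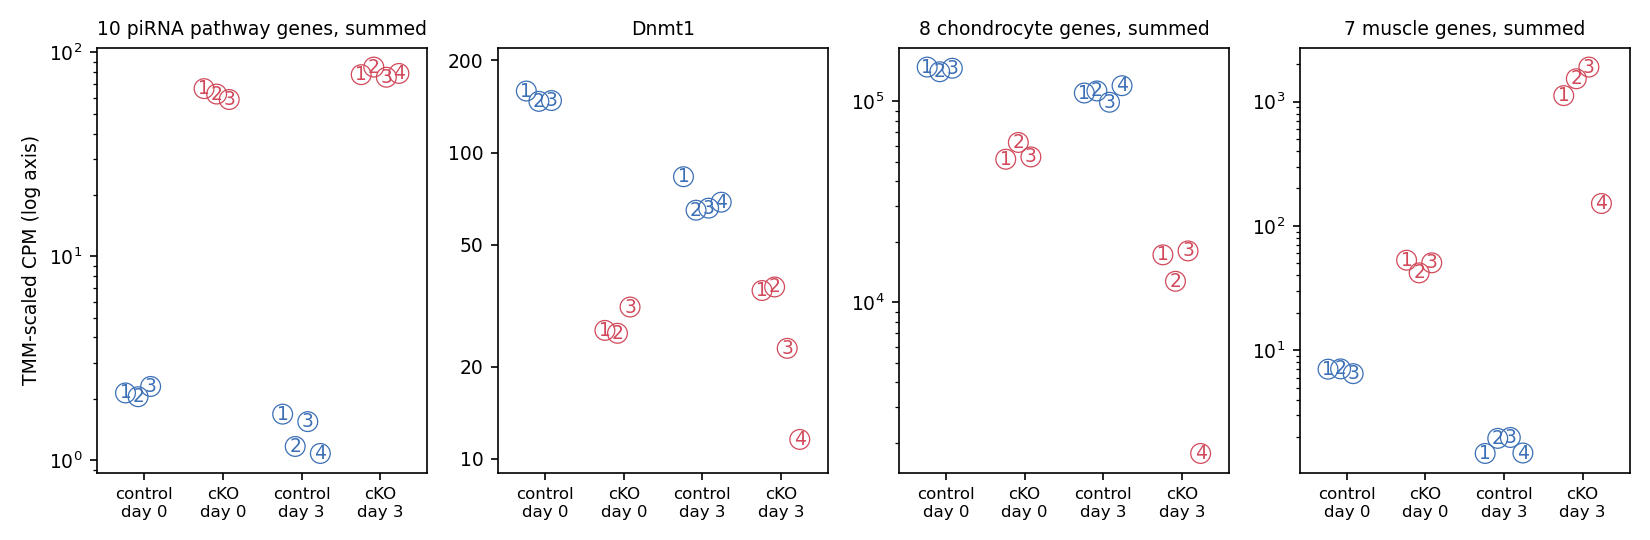
Summed CPM of the 10 members, Dnmt1, 8 chondrocyte markers and 7 muscle markers in each culture library, on log axes, with the replicate number in each circle, control in blue and cKO in red. In cKO at day 3 the chondrocyte sum spans 1772 to 18022 CPM and the muscle sum 151 to 1897 CPM, while the member sum spans 75.5 to 84.7 CPM.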

How the data were processed

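Per the labels' protocols, culture libraries came from a directional kit and cartilage libraries from a barcoded oligo-dT method with molecular identifiers (BRB-seq). The deposited tables hold estimated counts (day 0, day 3 and cartilage) and whole-number counts (cartilage) for each gene, made by the authors. The submitters' processing notes name the build GRCm38 for all samples and, for cartilage, UMI-tools 1.1.1, Trim Galore 0.6.7, HISAT2 2.2.1, featureCounts 2.0.1 and DESeq2 1.34.0. What made the culture tables is not given in the sources used here. Culture rows carry gene identifiers, of which 34582 of 34866 matched a symbol in GENCODE M21. A deposited list gave library pools. The number of unused sample columns was 0.

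Estimated counts were rounded and tested by edgeR 4.0.16 (R 4.3.3, quasi-likelihood test, TMM scaling, filterByExpr at 10 counts and 15 in total, Benjamini-Hochberg adjustment over all genes tested, called under 0.05), with sex as a covariate in cartilage. Genotype was tested within day 0, day 3 and cartilage, and the change between days in a fit of all 14 cultures. SE is the absolute log2 difference over the square root of F. Pooled ratios have exact binomial 95% intervals, and lower bounds use 3 counts per control library. The scripts were tested on simulated data. Alternatives were other scaling, DESeq2 1.42.0, no filter, each library left out, a replicate block, joint fits and single sexes. The whole-number cartilage table leads, since it is the one the selection of genes refers to, although the test plan had named the estimated counts for that.

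The 10 genes and all lists (other pathway genes, the small RNA machinery of all cells, and cell type markers) were chosen with earlier results of these data known. All members are named whatever their value, and genes of like pattern are the 5 with the highest correlation. The smallest chi-square per degree of freedom between replicates was 3.22, so no library was a copy of another. This check cannot tell whether replicates came from the same animal or culture.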

Additional observations from a re-analysis of the deposited data

Results flagged for a closer look

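In the estimated cartilage counts, Piwil2 in control replicate 3 was 3.43 CPM, while the other 3 control libraries were 0.962 to 1.05 CPM. This was the 1 sample found far from its group among 22 groups of 4 libraries examined, and chance alone flags about 1 in 20 such groups. In the whole-number table the same library had 2 counts of Piwil2, within the range of the other controls (1 to 2 counts).

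For Mov10l1 the fitted genotype effect at day 3 minus that at day 0 was 5.33 on the log2 scale (SE 0.67, edgeR adjusted p = 0.00661, with adjusted p from 0.00316 to 0.0288 over the alternatives). All 4 day 3 control libraries had 0 counts and the 3 day 0 control libraries 2, 3 and 2, so the fitted value depends on the prior count. The counts give a ratio of at least 190 at day 3, a bound with 3 counts set for each control library. At day 0 the pooled ratio was 220 (107 to 549). The bound and the pooled interval are unlike measures, so they cannot decide whether the effect differed between the days. The bound of 190 is low by its making, so its nearness to 220 does not show effects of like size. In cKO the gene was higher in 4 of 4 libraries at day 3 than in any at day 0.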

How the results depend on the processing

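The count of members called higher stayed at 7 or 8 at day 0 and at 6 to 8 at day 3 under every alternative run there, and no member's called direction reversed in any comparison. In cartilage no member passes the filter, so the count moves from 0 once it is dropped. With no filter it was 3 in both tables, 2 by DESeq2 in both, 2 in males only for the whole-number table and 1 in males only for the estimated counts. With each library left out as well it was 3 to 3 in the whole-number table and 2 to 3 in the estimated counts. In females only it was 0 in both, with 4 and 2 members at an unadjusted p under 0.05. Piwil2 in the estimated counts lost its call in 11 of 12 alternatives to the fit with no filter, and in the whole-number table in 3 of 12. The combinations of no filter with another choice were chosen after seeing the data. For the test of a genotype effect that differs between days the count was 1 to 2 when each library was left out, 2 without control day 3 replicate 3.

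Replicate numbers gave no clear sign of pairing: deviations of same-numbered samples correlated by -0.063 to 0.140 (day 0), -0.145 to -0.064 (day 3) and -0.079 to 0.177 (whole-number cartilage). Such weak correlations do not exclude pairing. In cartilage the deviations were taken within genotype and sex, from only 2 libraries each, so the check says little there. With the replicate block, 8 members were called at day 0 and 6 at day 3, and with no filter 3 in whole-number and 2 in estimated cartilage counts. Depth limits cartilage most, where 3 counts are 1.51 to 2.69 CPM.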
